A study of Homo sapiens with 6 samples.

Results

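The vascular endothelial growth factor (VEGF) and neuropilin group examined here holds the ligands VEGFA, VEGFB, VEGFC and PGF, the receptors FLT1 and KDR, the co-receptors NRP1 and NRP2, and the further secreted factors ANGPTL4 and PDGFB. The 10 genes were chosen by symbol and role out of 30267 genes in the expression table, with earlier results of these data known. They were followed in bulk RNA-seq of SW839 cells, an established renal cell carcinoma (RCC) line. The shRNF25 group held 3 libraries from cells with a hairpin against RNF25, an E3 ubiquitin ligase, and the shControl group held 3 libraries of cells carrying the pLKO control vector. The comparison asks how the RNA of these factors differs when RNF25 is knocked down.

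Both groups share the cell line, the medium with fetal bovine serum and, by the study's methods, lentiviral delivery followed by puromycin selection, and no drug treatment is named for these samples. The library names of the shRNF25 group all point to a single hairpin, so a second hairpin cannot be compared. The shRNF25 plasmid is named in the treatment text of the control samples as well, so group membership was taken from the titles and genotype labels. The library names of the 3 controls are not of the same form, and whether those were made together is not given. The design text speaks of biological replicates without naming cultures, so the p-values measure the spread between these libraries, part of which may be technical.

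VEGF ligands are secreted dimers that bind receptor tyrosine kinases on endothelial cells and drive the growth of blood vessels. VEGFA acts mainly through KDR (VEGFR2), PGF and VEGFB bind FLT1 (VEGFR1), which also holds VEGFA as a decoy, and the neuropilins NRP1 and NRP2 are co-receptors that present VEGF ligands and class 3 semaphorins. Clear cell RCC is known for loss of VHL, stabilized hypoxia-inducible factors (HIF) and high VEGFA, and inhibitors of the VEGF receptors are a mainstay of its treatment. PDGFB recruits pericytes to new vessels, and ANGPTL4 is a secreted inhibitor of lipoprotein lipase that responds to hypoxia and to PPAR ligands. In a culture of tumor cells alone the RNA shows what these cells could secrete or display, not signaling to vessels.

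The ligands VEGFA, VEGFB and PGF, together with ANGPTL4 and PDGFB, fell in shRNF25, whereas the receptor KDR and the co-receptor NRP1 rose. The receptor FLT1 was higher in every shRNF25 library but rested on few reads. A gene was called when its Benjamini-Hochberg adjusted p in limma, over the 16554 genes that reached a normalized count of 10 in 3 or more libraries, was under 0.05 and its fold change was at least 1.5. Of the 10 genes 9 passed this filter with values in both groups. FLT1 passed it only through the shRNF25 libraries, where it is high, so it had to differ and is left out of the counts in this paragraph. Of the 9 genes 5 were called lower, where 7.10% of all tested genes were, and 2 were called higher, where 8.65% of all tested genes were, so that 7 of the 9 were called beside 15.7% of all tested genes. By the adjusted p alone 6 were lower and 2 higher (10.8% and 10.5% of all tested genes), and with a fold change of at least 2 the counts were 3 lower and 1 higher (3.10% and 5.39%). VEGFC and NRP2 were not called. Without shRNF25 replicate 1, 2 or 3 the count of genes called lower was 3, as ANGPTL4 and PDGFB were then not called. The shControl and shRNF25 libraries did not overlap for any of the 9 genes, 7 of which were lower and 2 higher in shRNF25, where 42.5% of all tested genes had no overlap, 21.8% being lower and 20.7% higher. For each gene the two-sided exact permutation test over the 6 libraries gave p = 0.1, the smallest p that 3 against 3 can give. The median log2 fold change of the 9 genes was -0.63, beside -0.01 over all tested genes. All log2 fold changes are shRNF25 minus shControl on the log2(normalized count + 1) scale, on which changes of weakly expressed genes come out too small, and in bulk RNA fewer cells with a transcript and less of it per cell cannot be told apart.

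**Figure D1:**
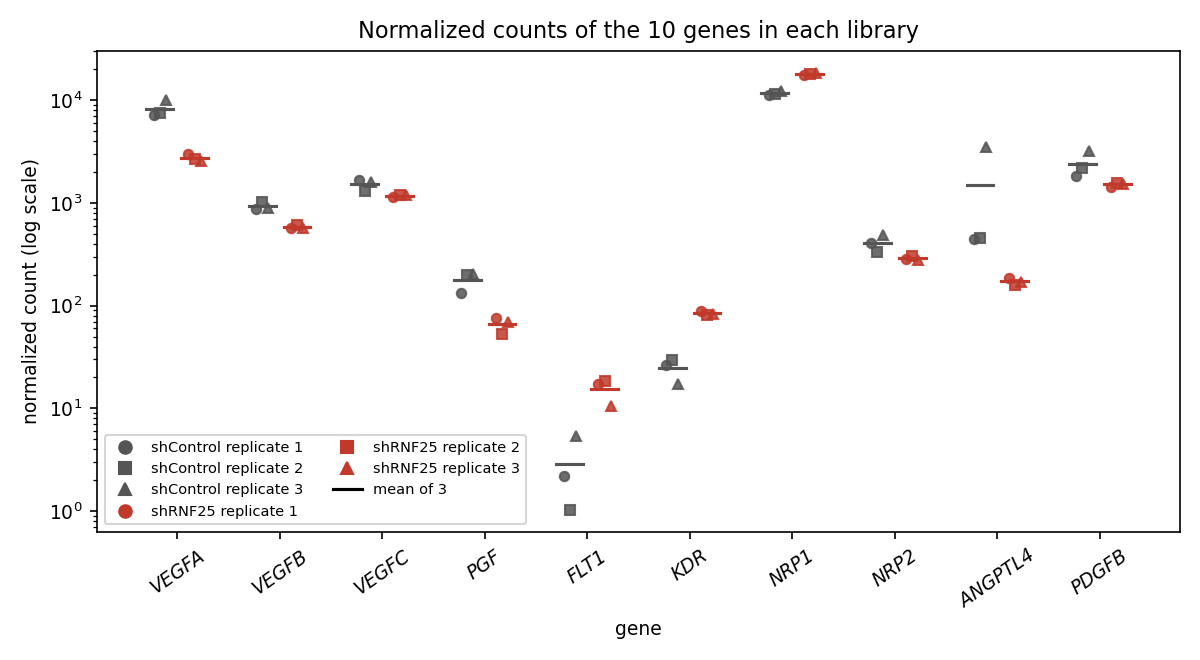
Normalized counts (log axis) of the 10 genes in the 3 shControl libraries (gray) and the 3 shRNF25 libraries (red), with a bar at each mean. The groups do not overlap for any gene, FLT1 stays under 20 in every library, and ANGPTL4 in shControl replicate 3 stands at 3550 while the other controls are near 450.

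RNF25 itself, the target of the hairpin, measured 694.2, 533.5 and 536.4 normalized counts in the shControl libraries and 214.1, 245.7 and 265.0 in shRNF25. Its shRNF25 mean was 41.1% of the shControl mean (limma log2 fold change -1.27, SE 0.15, adjusted p = 0.000585). Reads counted on genes lay between 18647460 and 19943154 per library. MT-CO1, the top gene of every library and named with its values in view, held 4.54% of them in shControl replicate 1. In the other libraries it held 1.46% to 1.80%. Over the tested genes, log2 values of shControl replicate 1 correlated at 0.981 with replicate 2 and 0.976 with replicate 3. Replicates 2 and 3 correlated at 0.987, and the part of these differences in the results was not tested. The epithelial and renal markers were led by KRT8, a simple-epithelium keratin, at 22206 to 38009, and PAX8, a renal lineage factor, lay between 76.7 and 140.3, whereas the HIF target CA9 reached only 1.8 to 50.7. The renal list summed to 38118 to 49938 in shControl and 53068 to 56924 in shRNF25, with 0 of its 4 tested genes called by limma, edgeR or DESeq2 and 2 at an unadjusted limma p under 0.05. These ranges did not overlap, and their part in the results was not tested. PAX8 and CA9 were named after their values were seen.

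Levels between genes were compared per kilobase of the longest coding transcript in GENCODE 29, with the normalized count divided by that length. In shControl, VEGFA (2346 ± 439 per kilobase, SD, n = 3) and NRP1 (1998 ± 103) were highest, and their ranges overlapped. ANGPTL4, VEGFC, PDGFB and VEGFB followed between 676 and 790, with neighboring ranges overlapping. PGF (91.9 ± 20.6) and NRP2 (61.4 ± 11.2) overlapped as well, and KDR (4.05 ± 1.07) and FLT1 (0.406 ± 0.319) were far below. In shRNF25 the order was led by NRP1 (3082 ± 87.7 per kilobase), followed without overlap by VEGFA (780 ± 66.1) and VEGFC (568 ± 14.5). There PDGFB (433 ± 19.0) and VEGFB (424 ± 17.2) overlapped, and ANGPTL4 (91.6 ± 6.80), NRP2 (43.4 ± 1.81), PGF (34.4 ± 5.92), KDR (14.0 ± 0.595) and FLT1 (2.17 ± 0.608) followed without overlap. With the union of all annotated exons as the length, the mean of VEGFA in shControl (575 per kilobase) stood below NRP1 (1020) and also below PDGFB (639), VEGFC (631), VEGFB (604) and ANGPTL4 (598). In shRNF25 it then stood at 191, below VEGFC (485), PDGFB (403) and VEGFB (378), and KDR (12.9) stood above PGF (11.1). The place of VEGFA in both orders therefore depends on the length used, whereas NRP1 was highest in shRNF25 with both lengths.

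VEGFA, the main VEGF ligand, spans 43770184 to 43786487 of chromosome 6 (GRCh38, plus strand). It measured 7242, 7558 and 10075 normalized counts in shControl and 3012, 2705 and 2554 in shRNF25, in the order of the replicate numbers, as for each gene that follows. Even the lowest control was far above the highest shRNF25 library. The mean went from 8292 ± 1553 to 2757 ± 233.8 (SD, n = 3 each), which is 33.3% of the control (log2 fold change -1.58, SE 0.14, limma adjusted p = 0.000157). The 95% interval of the fold ran from 2.39-fold to 3.72-fold lower. Without shControl replicate 3, the highest control, the log2 fold change was -1.43 (limma adjusted p = 0.000208). An antisense gene shares 1.30% of the exon length of VEGFA, and the strand setting of the counting is not given in the sources used here.

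PGF, placental growth factor, is a FLT1 ligand on chromosome 14 from 74941834 to 74955784 (minus strand). It measured 131.5, 197.0 and 202.9 normalized counts in shControl and 75.6, 53.6 and 69.6 in shRNF25. The lowest control, replicate 1, was still above every shRNF25 library. The shRNF25 mean was 37.4% of the control (177.1 ± 39.6 against 66.3 ± 11.4, SD, n = 3 each), a log2 fold change of -1.39 (SE 0.22, limma adjusted p = 0.00252).

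VEGFB, a FLT1 ligand linked to fatty acid handling and the survival of vessels, lies on chromosome 11 from 64234538 to 64238793 (plus strand). It measured 870.0, 1025 and 903.4 normalized counts in shControl and 575.9, 611.4 and 566.2 in shRNF25. Both groups were tight, with a clear gap between them. The mean fell from 932.8 ± 81.6 to 584.5 ± 23.8 (SD, n = 3 each), which is 62.7% of the control (log2 fold change -0.67, SE 0.11, limma adjusted p = 0.00351).

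VEGFC, the lymphangiogenic ligand of FLT4 (VEGFR3), lies on chromosome 4 from 176683538 to 176792727 (minus strand). It measured 1678, 1309 and 1593 normalized counts in shControl and 1139, 1195 and 1185 in shRNF25. The groups did not overlap, but the lowest control, replicate 2, was close to the shRNF25 libraries. The difference was not called (log2 fold change -0.37, 95% interval -0.64 to -0.10, limma adjusted p = 0.0545), and without shControl replicate 1 or 2 the adjusted p was 0.0333 or 0.0215, at log2 fold changes of -0.30 and -0.48 that stay short of 1.5-fold.

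The fitted changes of the ligands differed in size, which is described here by the ratio of VEGFA to each of the other ligands within a library. The smallest p possible for a ratio is 0.1, so the ratios are a description. The ratio of VEGFA to VEGFC was 4.32, 5.77 and 6.32 in shControl and 2.64, 2.26 and 2.16 in shRNF25. Against VEGFB it was 8.32, 7.37 and 11.2 in shControl and 5.23, 4.42 and 4.51 in shRNF25. Both ratios were lower in every shRNF25 library than in every control. The mean log2 ratio changed by -1.20 against VEGFC and by -0.90 against VEGFB, each with p = 0.1 in the two-sided exact permutation test and 0.133 after Benjamini-Hochberg adjustment over the 4 ratios computed. The log2 ratio of VEGFA to PGF was 5.55 ± 0.267 in shControl and 5.37 ± 0.236 in shRNF25 (SD, n = 3 each), and the libraries overlapped (difference -0.18, exact permutation p = 0.5, adjusted 0.5). Its sign turned to 0.065 under quantile normalization.

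**Figure D2:**
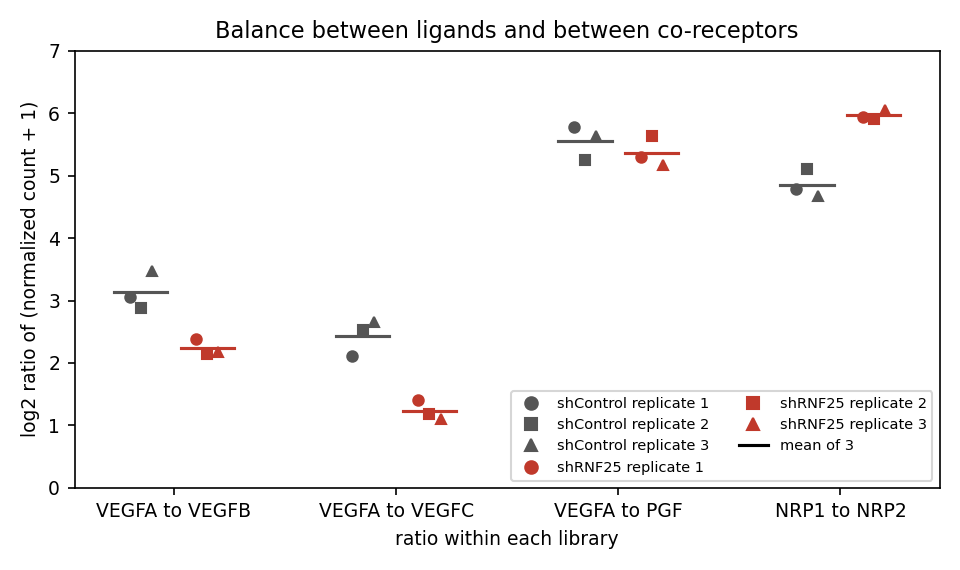
Log2 ratio of normalized count + 1 between pairs of genes within each library, for shControl (gray) and shRNF25 (red), with a bar at the mean of 3. VEGFA to VEGFB and VEGFA to VEGFC are lower in shRNF25, VEGFA to PGF overlaps between the groups, and NRP1 to NRP2 is higher in shRNF25.

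The receptors FLT1 and KDR are genes of endothelial cells above all, and both were scarce in these tumor cells. Their promoters are printed because each holds a match to the NF-κB consensus, and NF-κB is the study's pathway. This choice was made after the motif search, and whether the matches bear on the RNA changes was not tested. The sequences are the 250 bases before each RefSeq start on GRCh38.p14, 5′ to 3′ on the gene's strand, with matches to the NF-κB consensus and to the HIF-binding core (ACGTG or GCGTG), on either strand, in capitals. FLT1 is at chr13:28495129-28495378 and KDR at chr4:55125596-55125845, both on the minus strand. The last 17 bases of the FLT1 window lie in an exon of the GENCODE annotation and the KDR window holds no exon.
FLT1: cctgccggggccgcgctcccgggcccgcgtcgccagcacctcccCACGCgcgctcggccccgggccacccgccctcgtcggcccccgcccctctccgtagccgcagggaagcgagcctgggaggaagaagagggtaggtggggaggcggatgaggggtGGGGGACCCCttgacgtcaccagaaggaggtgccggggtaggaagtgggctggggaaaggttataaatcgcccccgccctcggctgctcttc
KDR: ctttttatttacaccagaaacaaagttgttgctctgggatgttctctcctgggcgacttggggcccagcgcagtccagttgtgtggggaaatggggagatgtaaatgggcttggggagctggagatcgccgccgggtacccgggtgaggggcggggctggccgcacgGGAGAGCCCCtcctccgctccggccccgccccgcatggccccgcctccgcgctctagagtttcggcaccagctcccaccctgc

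The NF-κB match lay 92 bases before the start in FLT1 and 83 bases before it in KDR, and 5.21% of 35116 promoters of the same length held one. FLT1 also held an HIF core 206 bases upstream, as did 43.2% of promoters, and a TATAAA element 31 bases upstream, as did 10.7%. The AP-1 element TGANTCA, present in 6.57% of promoters, was found in none of the 7 genes of the group with a RefSeq promoter, and the GC box GGGCGG, present in 42.6%, in all 7. VEGFB, VEGFC and ANGPTL4 held the HIF core as well. Promoters of VEGFA, NRP1 and PDGFB were not analysed here. These matches describe letters only, and binding was not measured.

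KDR, the main signaling receptor for VEGFA, spans 55078259 to 55125595 of chromosome 4. It measured 26.5, 29.8 and 17.3 normalized counts in shControl and 88.4, 81.3 and 83.9 in shRNF25. All shRNF25 libraries lay far above the highest control. The mean rose from 24.5 ± 6.48 to 84.5 ± 3.60 (SD, n = 3 each), which is 3.43-fold on the fitted scale (log2 fold change 1.78, SE 0.24, limma adjusted p = 0.00116), with a 95% interval from 2.37-fold to 4.97-fold.

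FLT1, the high-affinity receptor for VEGFA, PGF and VEGFB, spans 28300344 to 28495145 of chromosome 13. Its normalized counts were 2.21, 1.03 and 5.40 in shControl and 17.3, 18.5 and 10.5 in shRNF25. These rest on 2, 1 and 5 reads against 19, 20 and 11 reads, so FLT1 passed the filter on low values only through the shRNF25 libraries. The libraries did not overlap, and the pooled reads, 50 against 8, gave a ratio of 5.43 with an exact 95% interval from 2.55 to 13.3 that covers counting error only. The fitted log2 fold change was 2.21 (SE 0.49), with a limma adjusted p of 0.0124 over the filtered genes, which had selected FLT1 through its high group, and of 0.0185 over all 30267 genes with no filter. Without shRNF25 replicate 1 or 2 the adjusted p was 0.0671 or 0.0636.

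Markers of endothelial cells were measured beside the receptors. Of 10 endothelial markers 9 were measured and 4 were tested, and PECAM1, an endothelial adhesion molecule with the highest mean over the 6 libraries, lay between 349.9 and 549.4. ROBO4, an endothelial guidance receptor, had a slightly higher mean in shControl (404.1 against 400.3) and lay between 245.9 and 482.2. The defining marker ERG was at 0 in 4 of the 6 libraries and at most 2.2, CLDN5 at most 3.6, and VWF between 3.6 and 13.0. CDH5 (VE-cadherin) fell from 73.0, 102.6 and 198.6 in shControl to 3.6, 8.3 and 5.7 in shRNF25 (log2 fold change -4.12, limma adjusted p = 0.000213), and it passed the filter only through the shControl libraries, where it is high. ESAM, a junction protein, rose (0.79, limma adjusted p = 0.0246). The list summed to 1013 to 1158 in shControl and 891 to 1130 in shRNF25, ranges that overlap. Apart from PECAM1, these marker names were picked after their values were seen.

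NRP1, the most abundant transcript of the group by normalized count, lies on chromosome 10 from 33177492 to 33336262 (minus strand). It measured 11277, 11541 and 12431 normalized counts in shControl and 17590, 18184 and 18617 in shRNF25. Both groups were tight and well apart. The shRNF25 mean was 154.3% of the control (log2 fold change 0.63, SE 0.10, limma adjusted p = 0.00290). NRP1 rose, and it shares 4.87% of its exon length with an antisense gene.

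NRP2, the co-receptor better known for VEGFC and lymphatic vessels, lies on chromosome 2 from 205681990 to 205798133 (plus strand). It measured 407.9, 335.5 and 484.6 normalized counts in shControl and 286.1, 302.0 and 278.3 in shRNF25. The controls were spread widely but stayed above the shRNF25 libraries. The log2 fold change of -0.49 (SE 0.15, limma adjusted p = 0.0496) passed the p limit by a small margin but not 1.5-fold, so NRP2 was not called. Without shControl replicate 2 it met both limits (-0.62, limma adjusted p = 0.0230). Without shControl replicate 3 it met neither (-0.36, limma adjusted p = 0.0947). An antisense gene shares 1.06% of its exon length. The ratio of NRP1 to NRP2 was 27.6, 34.4 and 25.7 in shControl and 61.5, 60.2 and 66.9 in shRNF25. Every shRNF25 library was higher than every control. The mean log2 ratio changed by 1.11 (two-sided exact permutation p = 0.1, adjusted 0.133 over the 4 ratios).

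**Figure D3:**
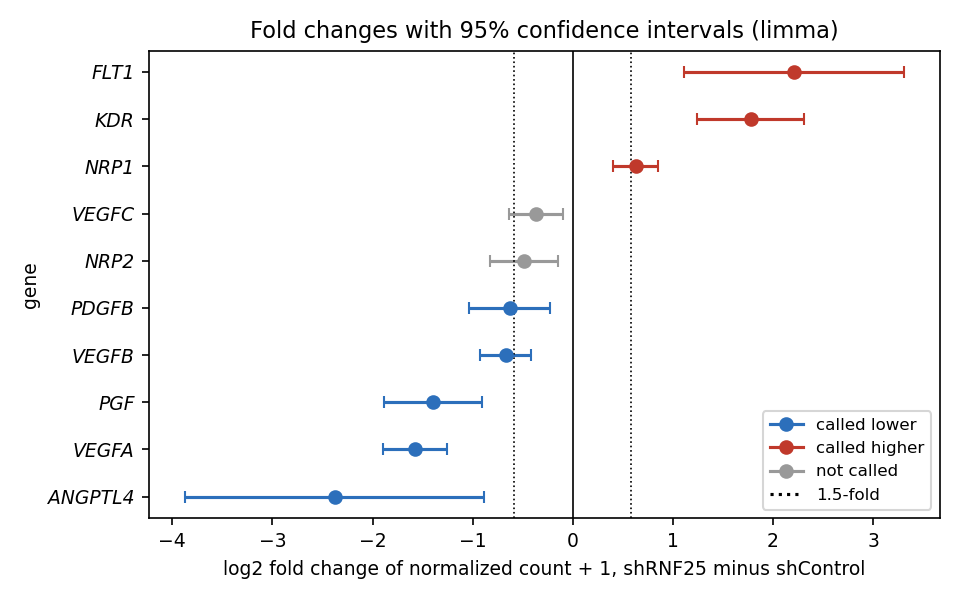
Log2 fold change (shRNF25 minus shControl, normalized count + 1) of each gene with its 95% confidence interval from limma; blue marks genes called lower, red called higher and gray not called, and dotted lines mark 1.5-fold. FLT1, KDR and NRP1 lie to the right of 0, and ANGPTL4 has the widest interval, from -3.87 to -0.88.

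ANGPTL4 lies on chromosome 19 from 8363289 to 8374373 (plus strand). Its promoter, chr19:8363905-8364154, is shown because it carries an HIF core (in capitals) 234 bases upstream and a TATAAA element 29 bases upstream. The last 4 bases of the window lie in an annotated exon.
ANGPTL4: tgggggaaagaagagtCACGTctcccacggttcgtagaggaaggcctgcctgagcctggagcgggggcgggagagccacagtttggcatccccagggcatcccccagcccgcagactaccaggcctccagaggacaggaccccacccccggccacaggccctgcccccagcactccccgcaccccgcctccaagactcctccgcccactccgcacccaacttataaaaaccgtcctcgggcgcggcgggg

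ANGPTL4 measured 448.8, 452.5 and 3550 normalized counts in shControl and 185.9, 160.7 and 169.7 in shRNF25. The third control stood far above the other controls, and even those were above every shRNF25 library. The log2 fold change was -2.38 (SE 0.66, limma adjusted p = 0.0324). Without shControl replicate 3 it was -1.39 with an adjusted p of 0.000502, so that library sets the size of the difference. With any 1 of the shRNF25 libraries left out, the adjusted p lay between 0.0925 and 0.0989. Among 11290 genes with a shControl mean of at least 100, ANGPTL4 had the highest ratio of shControl replicate 3 to the higher of the other controls, 7.85-fold, and 52 genes (0.461%) reached 2-fold. The same count was 78 for replicate 1 and 1 for replicate 2.

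Some HIF-related genes were also highest in shControl replicate 3. CA9, a carbonic anhydrase, measured 7.7, 12.3 and 50.7 in the controls, and ADM, adrenomedullin, 518.5, 679.2 and 996.2. PDK4, a PPAR target, measured 237.7, 154.9 and 159.7 and was not. Other PPAR genes, PLIN2 (977.2, 1092 and 1480) and CPT1A (2465, 2652 and 3316), were highest there, and HIF1A (15289, 7365 and 9786) was not. These genes were chosen after their values were seen, and whether the library's culture differed was not tested. Within the group, shControl replicate 3 was the highest control for 7 of 10 genes, where it was so for 31.6% of all tested genes. FLT1, with few reads, is among the 7.

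PDGFB, the ligand of PDGFRB on pericytes, lies on chromosome 22 from 39223359 to 39244751 (minus strand). It measured 1853, 2180 and 3177 normalized counts in shControl and 1442, 1573 and 1531 in shRNF25. The controls were spread widely, with replicate 3 highest again. The shRNF25 mean was 63.0% of the control (log2 fold change -0.63, SE 0.18, limma adjusted p = 0.0356). This call was lost under quantile normalization (adjusted p = 0.0645), under rescaling on the median ratio (0.0646), without shControl replicate 2 (0.0675) and without shRNF25 replicate 1, 2 or 3 (0.136, 0.0956 and 0.110). Without shControl replicate 3 the log2 fold change was -0.41, short of 1.5-fold. Its receptor PDGFRB, named with its values in view, lay between 3.2 and 10.5 normalized counts.

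The controls varied more than the knockdown libraries. The coefficient of variation was larger in shControl than in shRNF25 for 10 of 10 genes, as it was for 83.3% of all tested genes, with a median of 20.5% against 4.33% (18.2% and 6.70% over all tested genes). FLT1, with few reads, is included in these values. The variances were pooled in limma.

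**Figure D4:**
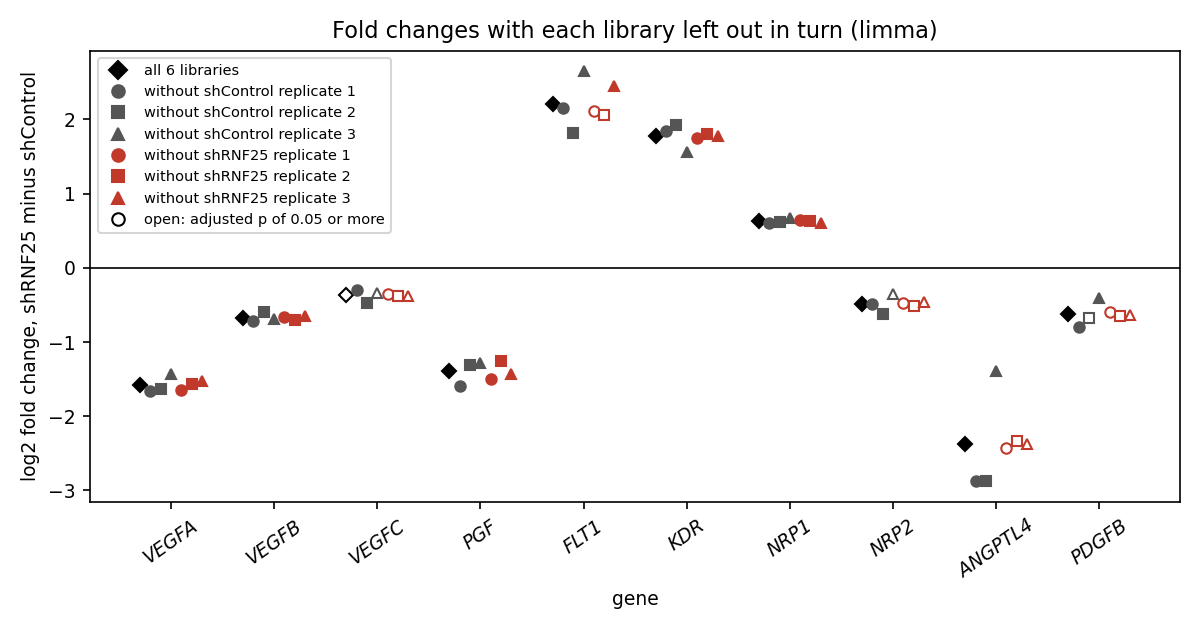
Log2 fold change of each gene with all 6 libraries (black diamonds) and with each library left out in turn, on a linear axis; open symbols have a limma adjusted p of 0.05 or more. VEGFA, VEGFB, PGF, KDR and NRP1 keep closed symbols throughout, and ANGPTL4 moves from -2.88 to -1.39.

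Related genes were counted from 10 lists of 90 symbols, of which 66 were tested. Of these 15 were lower, 9 higher and 42 not called, where 7.10% of all tested genes were lower and 8.65% higher. Their median log2 fold change was -0.01, as over all tested genes. The same shares stand beside the counts of each list that follows. VEGFD and FLT4, the rest of the VEGF family here, were not tested, lay at 5.5 or below and were named with their values in view. The list of neuropilin partners held 13 genes, the class 3 semaphorins, their plexins and the adaptor GIPC1, of which 3 were lower and 3 higher. SEMA3A, a repulsive ligand of NRP1, fell from 2067 ± 661 to 674.7 ± 10.8 normalized counts (log2 fold change -1.57, limma adjusted p = 0.000834). SEMA3F, a ligand of NRP2, rose from 3393 ± 508 to 7215 ± 357 (1.10, adjusted p = 0.000559). The receptor subunits PLXNA4 (1.46) and PLXNA2 (1.01) rose as well.

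Secreted angiogenic factors outside the VEGF family moved both ways, with 5 of 11 tested lower and 2 higher. ADM (log2 fold change -1.25) and the matrix protein CCN1 (-1.01) fell, whereas CCN2 (1.67), its relative, and FGF2 (1.15), a fibroblast growth factor, rose. Of 8 tested inhibitors of angiogenesis 2 were lower and 2 higher. THBS1, thrombospondin, was abundant and fell from 52248, 63256 and 60772 normalized counts in shControl to 14708, 15817 and 15662 in shRNF25 (-1.93, limma adjusted p = 1.73e-05). TIMP2, a metalloproteinase inhibitor, fell (-0.86). SPARC, a matrix protein, rose from 9.9, 5.1 and 14.0 to 137.6, 110.8 and 108.7 (3.57, limma adjusted p = 0.000167). SPARC had reached the filter value in 1 control library only, so it was tested because of the shRNF25 libraries, where it is high. It is included in the counts of related genes and of inhibitors. VASH1, vasohibin, rose as well (1.61, limma adjusted p = 0.00103).

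Of the 9 tested HIF subunits and oxygen sensors 0 were called by limma, with 3 at an unadjusted p under 0.05, 0 called by edgeR and 1 by DESeq2, the oxygen sensor EGLN3 (normalized counts of 171.3, 250.4 and 356.2 in shControl and 164.9, 162.5 and 143.0 in shRNF25). HIF1AN, which hydroxylates HIF subunits, had a limma adjusted p of 0.0495 at a log2 fold change of 0.34, short of 1.5-fold, and its groups did not overlap. VHL (log2 fold change -0.04, adjusted p = 0.835), HIF1A (-0.20, 0.556) and EPAS1 (-0.25, 0.204), with limma adjusted p-values, were, like EGLN3 and HIF1AN, chosen after their values were seen. Among PPAR genes, 3 of 9 tested were lower and 2 higher. PPARD, the receptor, fell (-0.85), as did PLIN2 (-0.79), which coats lipid droplets, and PDK4 (-0.76), whereas FABP4, a fatty acid carrier, rose (2.04). Of 9 tested targets of kinase inhibitors other than the VEGF receptors, EGFR (-1.03) and FGFR4 (-0.65) fell. Of the 4 tested PDGF genes other than PDGFB and the 2 tested ANGPTL genes, 0 were called by limma, edgeR or DESeq2 and 0 had an unadjusted limma p under 0.05. The 1 tested angiopoietin or TIE gene, ANGPT4, measured 2.2, 8.2 and 6.5 normalized counts in shControl and 20.0, 11.1 and 16.2 in shRNF25, and passed the filter only through shRNF25, where it is high. It was called by edgeR alone (log2 fold change 1.44, limma adjusted p = 0.0528).

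**Figure D5:**
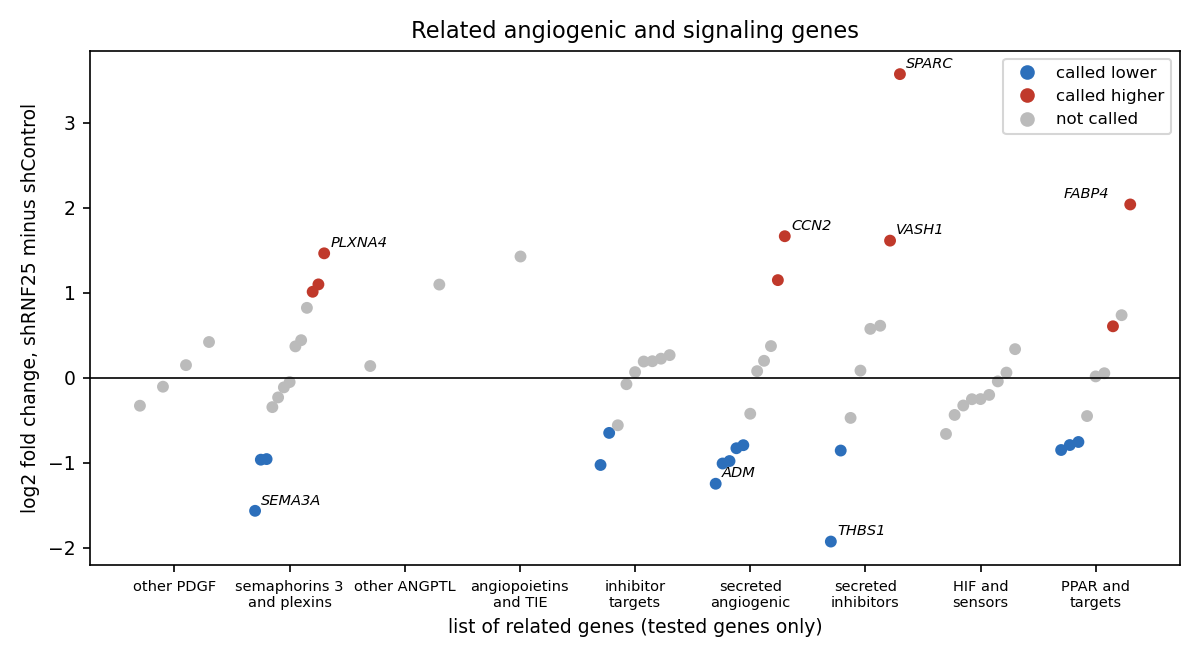
Log2 fold change (shRNF25 minus shControl) of the 66 tested genes of the related lists, with blue for called lower, red for called higher and gray for not called. Semaphorins, secreted factors and inhibitors each hold genes on both sides of 0, and no gene of the HIF list is called.

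The genes whose pattern over the 6 libraries was closest to VEGFA, by the root mean square difference of centered log2 values, were AC004817.3 (0.0736), PIM1 (0.1003), a kinase, and ADAM12 (0.104), a metalloproteinase. Their log2 fold changes were -1.60, -1.49 and -1.44. PIM1 measured 2258, 2771 and 3110.5 normalized counts in shControl and 1038, 897.6 and 937.9 in shRNF25.

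Mural and leukocyte markers were low. The pericyte and fibroblast list summed to 147 to 160 normalized counts in shControl and 150 to 171 in shRNF25, with CSPG4, a proteoglycan, highest, 0 of 4 tested genes called by limma, edgeR or DESeq2 and 1 at an unadjusted limma p under 0.05. The leukocyte list summed to 34.5 to 43.1 in shControl and 50.5 to 72.9 in shRNF25, ranges that did not overlap and whose part in the results was not tested. Its highest gene ITGAM, an integrin, rose (log2 fold change 0.86, limma adjusted p = 0.0465). Of the 2 tested genes of this list 1 was called by limma, 1 by edgeR and 0 by DESeq2.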

How the data were processed

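Total RNA of SW839 cells was sequenced after ribosomal depletion, in 3 shRNF25 and 3 shControl libraries. The authors deposited a signal table of normalized counts for 30267 gene symbols, made by dividing each library's counts by a scaling factor. The submitters' processing notes name fastp, HISAT2, HTSeq and GRCh38, and the methods name a stranded kit and DESeq2. The strand setting of the counting is not given in the sources used here. Whole reads were recovered for 100% of the deposited values (tolerance 0.001 reads), with between 18647460 and 19943154 reads per library. The factors, from 0.905 to 1.10, equaled DESeq2's median-of-ratios factors, so differences are relative to the typical gene.

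Values were taken as log2(normalized count + 1). The 16554 genes with at least 10 in at least 3 libraries were fitted with limma 3.58.1 (lmFit, eBayes with a trend) in R 4.3.3, the group being the only term, with Benjamini-Hochberg adjustment. Calls needed an adjusted p under 0.05 and a fold change of at least 1.5. Single values and ratios had a two-sided exact permutation test. On simulated counts limma recovered 185 of 189 changed genes among 16243 genes, with 5 false calls. These counts had a common dispersion for all genes and both groups. The planted changes were larger than those of VEGFB, VEGFC, PGF, NRP1, NRP2, PDGFB and RNF25. Recovery of changes that small, or with unequal spread between genes or between the groups, was not tested. Alternatives are given in the closing section and include count models of the recovered whole reads (edgeR 4.0.16, DESeq2 1.42.0).

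The genes and lists were chosen with earlier results of these data known. The named genes are the 10 genes of the group, RNF25, up to 4 called genes of each related list with the largest log2 fold change, the 3 genes closest to VEGFA and the highest gene of each marker list. For any other gene the text says that it was picked with its values in view. Positions are from GENCODE 29 and promoters from RefSeq (GRCh38.p14, 7 of 10 genes matched), both matched by symbol.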

Additional observations from a re-analysis of the deposited data

How the results depend on the processing

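VEGFA, VEGFB, PGF, KDR, NRP1 and RNF25 kept their direction and an adjusted p under 0.05 under all 16 alternatives to limma as described, and their highest adjusted p-values were 0.00181, 0.0299, 0.0156, 0.0118, 0.0285 and 0.00663. They comprised a pseudocount of 5 or of 0.5, testing without a filter, a minimum of 50, quantile normalization, rescaling on the median ratio, edgeR, DESeq2, a replicate block, leaving out single libraries, and library weights by group. The weights were chosen after seeing the data. For counts of genes, a fold of at least 2 and no fold limit were also tried. FLT1 was not tested at a minimum of 50, where it had no value. KDR reached that minimum only through the shRNF25 libraries, where it is high. It had to differ there, so that setting adds nothing for KDR.

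VEGFC, with a log2 fold change of -0.37, passed the p limit in DESeq2 (-0.37, adjusted p = 0.0386) and with library weights in limma (-0.37, adjusted p = 0.0398). NRP2 lost it with no filter (-0.49), a minimum of 50 (-0.49), quantile normalization (-0.46), median ratio rescaling (-0.42), edgeR (-0.47) and the replicate block (-0.49), at adjusted p-values from 0.0519 to 0.0886. PDGFB lost it with quantile normalization (-0.54) and median ratio rescaling (-0.56). The log2 ratio of VEGFA to PGF turned to 0.065 with quantile normalization. With a fold of at least 2, 3 of the 10 genes and 5 related genes were called lower. The cause of these changes was not tested, apart from the fold limit, which removes genes by construction.

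With 1 library left out, which tests fewer samples, the log2 fold changes ranged from -0.48 to -0.30 for VEGFC, 1.82 to 2.65 for FLT1, -0.62 to -0.36 for NRP2, -2.88 to -1.39 for ANGPTL4 and -0.80 to -0.41 for PDGFB, and the genes called lower numbered 3 to 5. Same-numbered libraries of the groups correlated at -0.0638, -0.0874 and 0.0471, so the numbers were not taken to pair them. With the replicate block, VEGFA had a log2 fold change of -1.58 (limma adjusted p = 2.91e-05), and NRP2 alone among the 10 genes crossed the p limit. Among all tested genes 54.9% of calls were higher, 62.7% with median ratio rescaling and 47.6% with a minimum of 50. Without shRNF25 replicate 1, 2 or 3 748, 824 or 831 of all tested genes were called higher, in place of 1432. Depth limits FLT1 above all, at 1 to 5 reads per control library.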
